A study of Bos taurus with 22 samples.

Results

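The germinal center regulators described here are 8 genes, BCL6, MEF2B, POU2AF1, ELL3, S1PR2, RGS13, HMCES and EHD3, taken by symbol from a deposited table of 27570 genes. All 8 were in the table under 1 identifier each. They had been picked from genes that were lower with glucagon-like peptide 2 (GLP-2) in these same steers, so their GLP-2 values are given as a description, without a test. Jejunal mucosa was scraped from Holstein steers of 10 to 12 months of age and its polyadenylated RNA was sequenced in 22 animals, 1 library each. All steers received raw corn starch into the abomasum at 3.94 g per kg body weight per day for 7 days. Control steers (n = 5) had water infusion and injections of vehicle, a solution of bovine serum albumin (BSA). GLP-2 steers (n = 5) had water infusion and 100 µg GLP-2 per kg per day under the skin, casein steers (n = 6) had 1.30 g sodium caseinate per kg per day in the abomasum and BSA injections, and casein + GLP-2 steers (n = 6) had both. The replicate number is the body weight block from 1 to 6, and the GLP-2 steer of block 2 was not analysed here. No control steer of block 6 was among the samples. The authors left 1 control sample out of sequencing because its RNA integrity was low. RNA integrity of the single steers was not available here.

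A germinal center is the part of a B cell follicle in which activated B cells divide, mutate their antibody genes and are selected. In the gut such follicles lie in Peyer's patches and in single nodules of the mucosa, so a scraping may hold many, few or none of them. BCL6 is the repressor that holds B cells in the germinal center state, MEF2B is a transcription factor that activates BCL6, and POU2AF1 is a coactivator that works with octamer-binding factors on B cell genes. ELL3 is an elongation factor for RNA polymerase II, S1PR2 is the sphingosine-1-phosphate receptor that keeps cells inside the follicle, and RGS13 shortens signaling from chemokine receptors. HMCES shields abasic sites in DNA, and EHD3 is a membrane trafficking protein of the endosome.

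Library totals ranged from 8809666 to 28447810 counts. Values below are CPM (counts scaled by library size after normalization by the trimmed mean of M values, TMM) or log2 fold changes from edgeR. Marker genes of the epithelium were looked at beside the tissue label. All 12 villus enterocyte and epithelial genes were present, with a summed level of 3241 to 55128 CPM over the steers. Their presence does not tell the segment of the intestine, and values of ileal genes are given below. In whole mucosa, fewer cells of a type and less RNA per cell cannot be told apart.

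The 8 members followed 1 pattern across steers. Control replicates 1, 3 and 5 and casein replicate 3 held the 4 highest values of each member, and all 4 of these steers had received BSA. They were also the 4 highest for MS4A1, the B cell surface protein CD20, with 182 to 366 CPM against at most 35.2 CPM in the other 18 steers. The members' pooled fold changes, the casein comparisons and the correlations are therefore also given without these 4 steers, an alternative chosen after the values were seen. Control replicate 2, also a BSA steer, had only 0.794 CPM of MS4A1 and lay among the GLP-2 steers for most members.

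**Figure D1:**
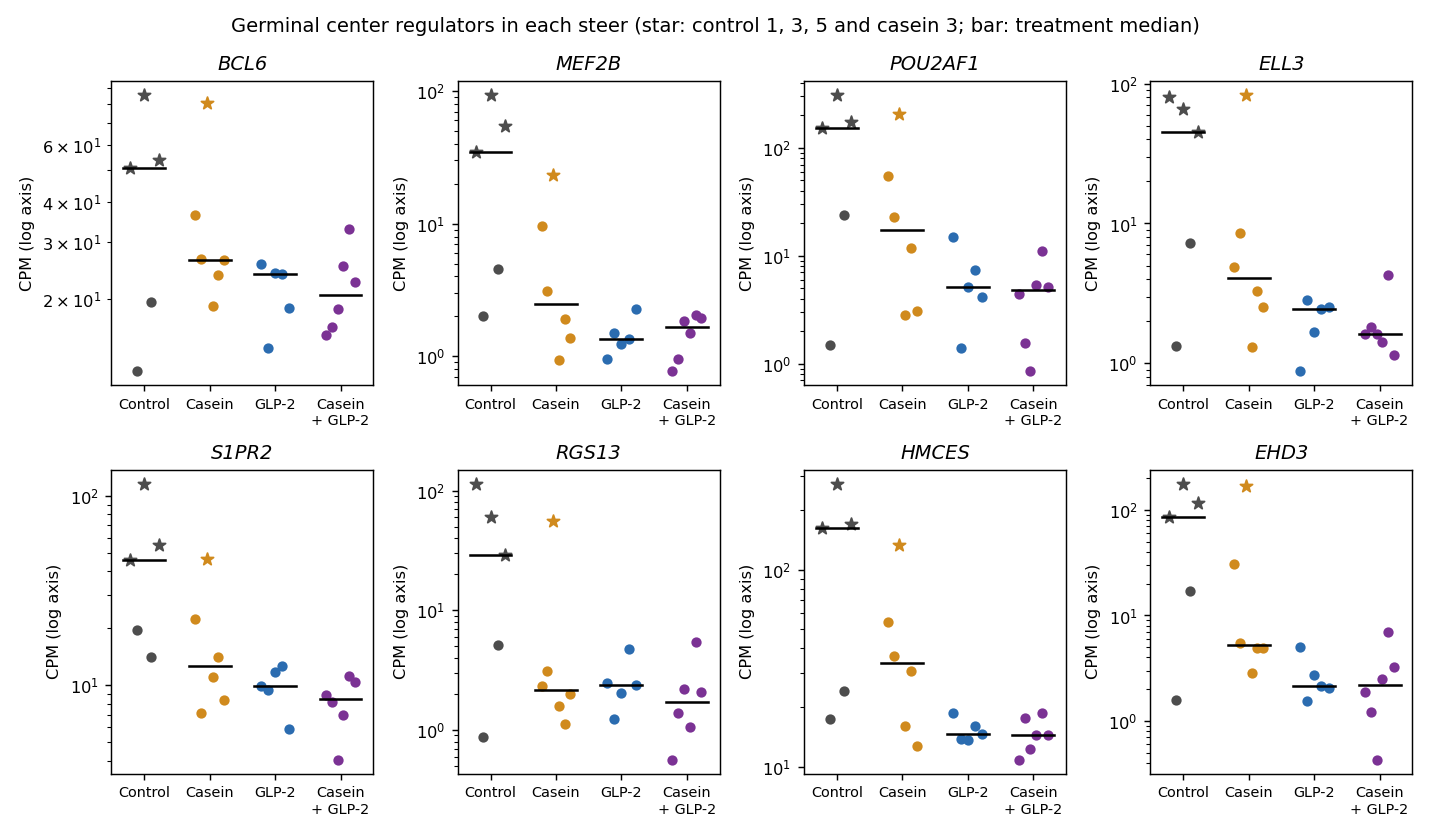
CPM of each member (log axis) in every steer by treatment, with the treatment median as a bar and stars for control replicates 1, 3 and 5 and casein replicate 3. The stars lie above all other points in each of the 8 panels, and the GLP-2 and casein + GLP-2 steers overlap with the remaining BSA steers.

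BCL6 (ENSBTAG00000001511, chromosome 1 from 79558314 to 79611183 on build ARS-UCD1.2, plus strand) was read at a clear level in every steer. In control replicates 1 to 5 it was at 51.0, 11.998, 85.5, 19.6 and 53.8 CPM. In the GLP-2 steers of blocks 1, 3, 4, 5 and 6 it was at 25.7, 14.2, 24.1, 23.9 and 18.8 CPM. The casein steers had a lowest value of 19.1, a median of 26.5 and a highest of 81.0 CPM, and the casein + GLP-2 steers 15.5, 20.7 and 33.0 CPM. Control replicate 2 was the lowest of all 22 steers, so the treatments overlapped. BCL6 had the smallest span of the members, with 7.13 times between the highest and the lowest steer.

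MEF2B (ENSBTAG00000001818, chromosome 7 from 4095668 to 4099712, plus strand) had its lowest values with GLP-2 and in some BSA steers. Its control values were 34.7, 2.03, 93.5, 4.56 and 54.5 CPM, and its GLP-2 values 0.958, 1.49, 1.23, 1.36 and 2.29 CPM. Casein steers ranged from 0.940 over a median of 2.50 to 23.2 CPM, and casein + GLP-2 steers from 0.773 over 1.68 to 2.05 CPM. Of the 11 BSA steers, 7 lay above every GLP-2-injected steer. The highest steer was 121 times the lowest.

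POU2AF1 (ENSBTAG00000006282, chromosome 15 from 21635824 to 21660814, minus strand) reached the highest CPM of any member in any steer, while per length HMCES did, with 142.7 FPKM against 116.0 FPKM for POU2AF1. It was at 154, 1.4997, 309.9, 23.8 and 172 CPM in the control steers and at 15.1, 1.41, 5.09, 7.38 and 4.12 CPM in the GLP-2 steers. With casein the lowest, median and highest values were 2.82, 17.2 and 205 CPM, and with casein + GLP-2 they were 0.851, 4.79 and 11.2 CPM. Unlike MEF2B, POU2AF1 still varied widely at low levels, by 17.7 times among the 11 GLP-2-injected steers against 2.96 times for MEF2B.

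ELL3 (ENSBTAG00000032132, chromosome 21 from 55393506 to 55397020, minus strand) was separated from the rest in the 4 high steers by a gap that only RGS13 exceeded. Its control values were 80.1, 1.32, 66.1, 7.21 and 45.0 CPM and its GLP-2 values 0.878, 2.86, 1.68, 2.43 and 2.52 CPM. Casein steers had 1.32, 4.09 and 83.1 CPM as lowest, median and highest, and casein + GLP-2 steers 1.15, 1.62 and 4.25 CPM. The lowest of the 4 high steers was 5.22 times the highest of the other 18, beside 5.36 times for RGS13.

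S1PR2 (ENSBTAG00000002738, chromosome 7 from 14748494 to 14756256, minus strand) was, with BCL6 and HMCES, 1 of 3 members with more than 50 counts in every steer (at least 57). The control steers had 45.9, 19.6, 116, 14.2 and 54.8 CPM and the GLP-2 steers 9.98, 9.49, 11.7, 12.6 and 5.87 CPM. The lowest control value, 14.2 CPM, lay above the highest value of the GLP-2 steers, 12.6 CPM. How many of all genes are separated in this way was not counted. Casein steers ranged from 7.18 over 12.6 to 46.6 CPM and casein + GLP-2 steers from 4.04 over 8.50 to 11.3 CPM.

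RGS13 (ENSBTAG00000013849, chromosome 16 from 12596362 to 12623734, minus strand) was high in the same 4 steers and low in every other steer. The control values were 115, 0.882, 60.6, 5.12 and 29.2 CPM and the GLP-2 values 2.47, 1.24, 2.05, 4.76 and 2.36 CPM. Casein steers had 1.12, 2.17 and 56.2 CPM, and casein + GLP-2 steers 0.562, 1.72 and 5.44 CPM. Only the 4 high steers of the 11 with BSA lay above all GLP-2-injected steers, the fewest of any member.

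HMCES (ENSBTAG00000030930, chromosome 22 from 59150394 to 59165062, plus strand) was the most even member among GLP-2-injected steers. It was at 162, 17.5, 273, 24.3 and 169 CPM in the control steers and at 18.8, 13.8, 13.7, 16.0 and 14.6 CPM in the GLP-2 steers. Casein steers ranged from 12.7 over 33.5 to 133 CPM, and casein + GLP-2 steers from 10.8 over 14.5 to 18.7 CPM. Its coefficient of variation over the 11 GLP-2-injected steers was 16.8%, against 103% over the 11 BSA steers.

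EHD3 (ENSBTAG00000001662, chromosome 11 from 68659832 to 68688786, minus strand) had the widest span, 419.8 times between the highest and the lowest steer. The control values were 86.1, 1.59, 179, 16.9 and 116 CPM and the GLP-2 values 5.03, 1.53, 2.75, 2.13 and 2.06 CPM. Casein steers had 2.82, 5.24 and 169.5 CPM as lowest, median and highest, and casein + GLP-2 steers 0.426, 2.19 and 6.93 CPM. The lowest value rests on 6 counts.

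No other gene of the table overlaps any of the 8 in position. Across treatments the order of the medians was control first for all 8 members and casein second for 7 of them, with RGS13 as the exception. Neighbors in that order overlapped in range for each member. Per length, in the deposited FPKM values (fragments scaled by gene length and library size), the order of members differed between injections. HMCES had the highest median with BSA (18.6 FPKM) and with GLP-2 (7.30 FPKM). EHD3 ranked 5 with BSA at 4.82 FPKM and 8 with GLP-2 at 0.599 FPKM, and BCL6 ranked 4 at 7.09 FPKM and 2 at 5.82 FPKM.

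Between the 11 GLP-2-injected and the 11 BSA steers, edgeR's quasi-likelihood test, adjusted by Benjamini and Hochberg's method, called 13.5% of 13928 genes at the 0.05 threshold, and 8.37% were called lower. All 8 members were among those lower, which their choice fixed. With the body weight block in the fit, 689 genes (4.95% of 13928) and 6 of the 8 members were called, without BCL6 and RGS13. The log2 fold changes were -4.41 ± 0.78 (SE) for EHD3, -4.00 ± 0.79 for POU2AF1, -3.82 ± 0.71 for MEF2B, -3.77 ± 0.70 for ELL3 and -3.47 ± 0.79 for RGS13. They were smaller for HMCES (-2.51 ± 0.46), S1PR2 (-1.87 ± 0.40) and BCL6 (-0.88 ± 0.28), the 3 members with a clear level in all steers. The median over the members was -3.62, beside 0.01 over all genes tested.

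Means and medians gave different sizes. The mean of RGS13 over BSA steers was 10.8 times that over GLP-2-injected steers, while the ratio of medians was 1.499. For BCL6 these ratios were 1.83 and 1.18, for HMCES 5.63 and 2.51, and for EHD3 20.8 and 7.94. Without the 4 high steers the log2 fold changes were -1.86 for EHD3, -1.65 for POU2AF1, -1.18 for MEF2B, -1.04 for ELL3, -0.88 for HMCES and -0.63 for S1PR2. For BCL6 and RGS13 they were -0.12 and -0.01. In that fit 0 of 14285 genes were called by edgeR, while 1927 passed 0.05 without adjustment.

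Among water-infused steers, GLP-2 against control gave log2 fold changes from -4.89 (EHD3) to -1.06 (BCL6), with MEF2B at -4.68. Under casein they ran from -3.76 (EHD3) to -0.70 (BCL6), with MEF2B at -2.15. All 8 members were lower in both. In these 2 comparisons edgeR called 0.0% of 15086 genes, while 2103 and 3637 genes passed 0.05 without adjustment.

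**Figure D2:**
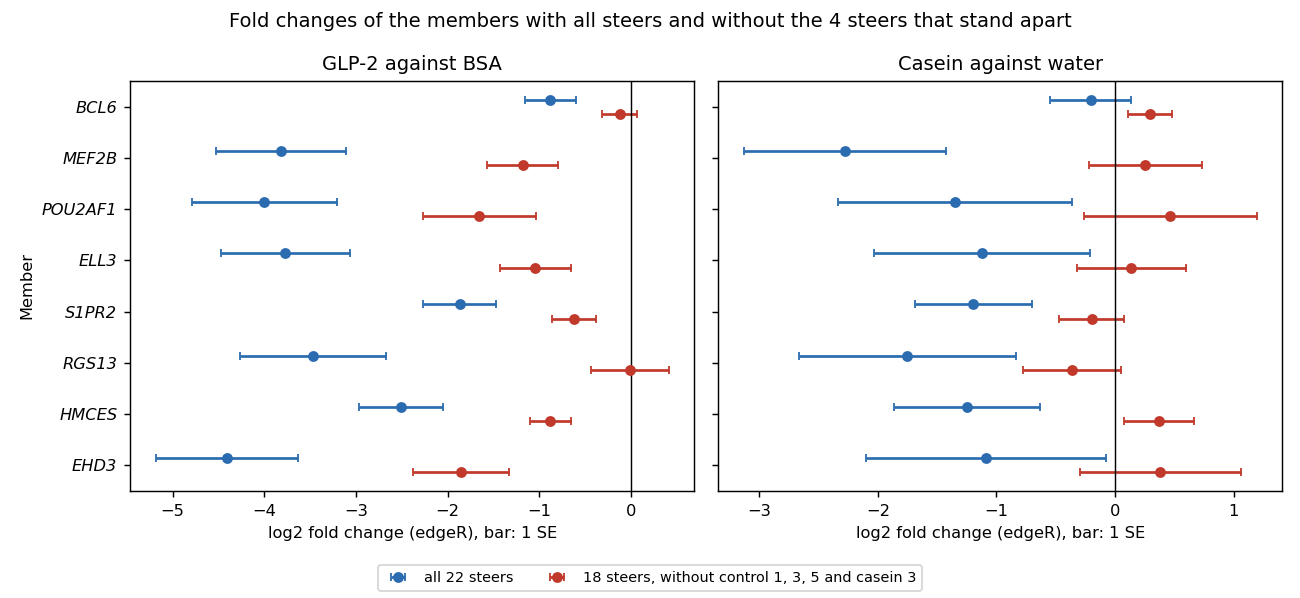
Log2 fold changes of each member (points, with 1 SE) for the GLP-2 injection (left) and the casein infusion (right), with all 22 steers in blue and with 18 steers in red. Without control replicates 1, 3 and 5 and casein replicate 3, all points move toward 0 for GLP-2, and 6 of 8 points move from below to above 0 for casein.

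The members were not chosen on the casein comparisons, and these were tested. They are not independent of the choice, because the 4 high steers enter both. A sign shared by the 8 members in them, or in the interaction, is therefore a description. Against water, casein (n = 12 against n = 10) left 0 of the 8 members past an adjusted p of 0.05 in edgeR, where 0.0% of 14096 genes were called and 474 passed 0.05 without adjustment. All 8 log2 fold changes were below 0, with a median of -1.22 beside 0.00 for all genes tested. MEF2B had the largest, -2.28 ± 0.85 (SE; unadjusted p = 0.0133, adjusted p = 0.994, edgeR), followed by RGS13 at -1.75 ± 0.91, POU2AF1 at -1.35 ± 0.98 and HMCES at -1.25 ± 0.62. S1PR2 was at -1.20 ± 0.49 (unadjusted p = 0.0232, adjusted p = 0.994, edgeR). BCL6, at -0.21 ± 0.34, was the smallest. Of the 4 high steers, 3 were control steers and 1 a casein steer. Without them 6 of 8 members lay above 0, for example BCL6 at 0.29, HMCES at 0.37 and POU2AF1 at 0.46, and the median was 0.28.

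Casein against control gave -2.49 ± 0.78 for MEF2B (unadjusted p = 0.00423, adjusted p = 0.778, edgeR), -1.45 ± 0.57 for HMCES (adjusted p = 0.832) and -1.45 ± 0.48 for S1PR2 (adjusted p = 0.820). None of the 8 was called, with 0.0% of 15086 genes called and 854 past 0.05 without adjustment. Without the 4 high steers, in which control keeps 2 steers, MEF2B was at 0.018 and HMCES at 0.51. Casein + GLP-2 against GLP-2, where none of the 4 steers is compared, gave members between -0.47 (POU2AF1) and 0.04 (MEF2B), each within 1 SE of 0. The 4 steers still enter these SEs, because all steers share 1 estimate of the spread in the model of 4 treatments. EdgeR called none of the members (adjusted p of at least 0.995) and 0.0% of all genes, with 398 past 0.05 without adjustment. The interaction of casein with GLP-2 was above 0 for all 8 members, from 0.36 ± 0.57 for BCL6 to 2.53 ± 1.14 for MEF2B (adjusted p = 0.996, edgeR), and 0 members and 0.0% of all genes were called, with 645 past 0.05 without adjustment. Without the 4 steers 4 of these 8 interactions were below 0.

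The members were then set beside MS4A1 as a measure of B cells and MKI67, a protein of dividing cells. Values are log2 CPM with 1 point per steer, and each pair of genes shares its library. Because the 4 high steers form a separate cluster, r over all 22 steers, which was 0.84 to 0.97 with MS4A1, includes the distance between them and the rest. Among the other 18 steers, Pearson's r with MS4A1 was 0.92 for EHD3, 0.91 for POU2AF1, 0.76 for HMCES, 0.71 for ELL3, 0.68 for BCL6, 0.60 for MEF2B, 0.42 for S1PR2 and 0.40 for RGS13. Spearman's rho in these steers ran from 0.33 to 0.86.

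Within the 11 GLP-2-injected steers alone, which hold none of the 4, r with MS4A1 was 0.89 for EHD3 (rho 0.71), 0.80 for POU2AF1 (rho 0.77), 0.66 for S1PR2 (rho 0.40) and 0.65 for BCL6 (rho 0.75). It was 0.19 for RGS13 (rho 0.16), 0.08 for ELL3 (rho -0.15) and -0.19 for MEF2B (rho -0.25). The last 3 rest on 8 to 69, 10 to 69 and 11 to 36 counts per steer. Counting error alone would give MEF2B a coefficient of variation of 22.9%, beside 33.2% observed. For ELL3 it would give 19.2% beside 46.9%, for RGS13 18.5% beside 64.5%, and for POU2AF1 11.98% beside 76.8%. EHD3, on 6 to 88 counts, had 17.1% beside 68.1%. Whether low counts account for the small r of MEF2B, ELL3 and RGS13 was not tested. Leaving out the 2 steers farthest from the median of MS4A1 gave r of 0.78 to 0.96 over the 20 steers left.

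**Figure D3:**
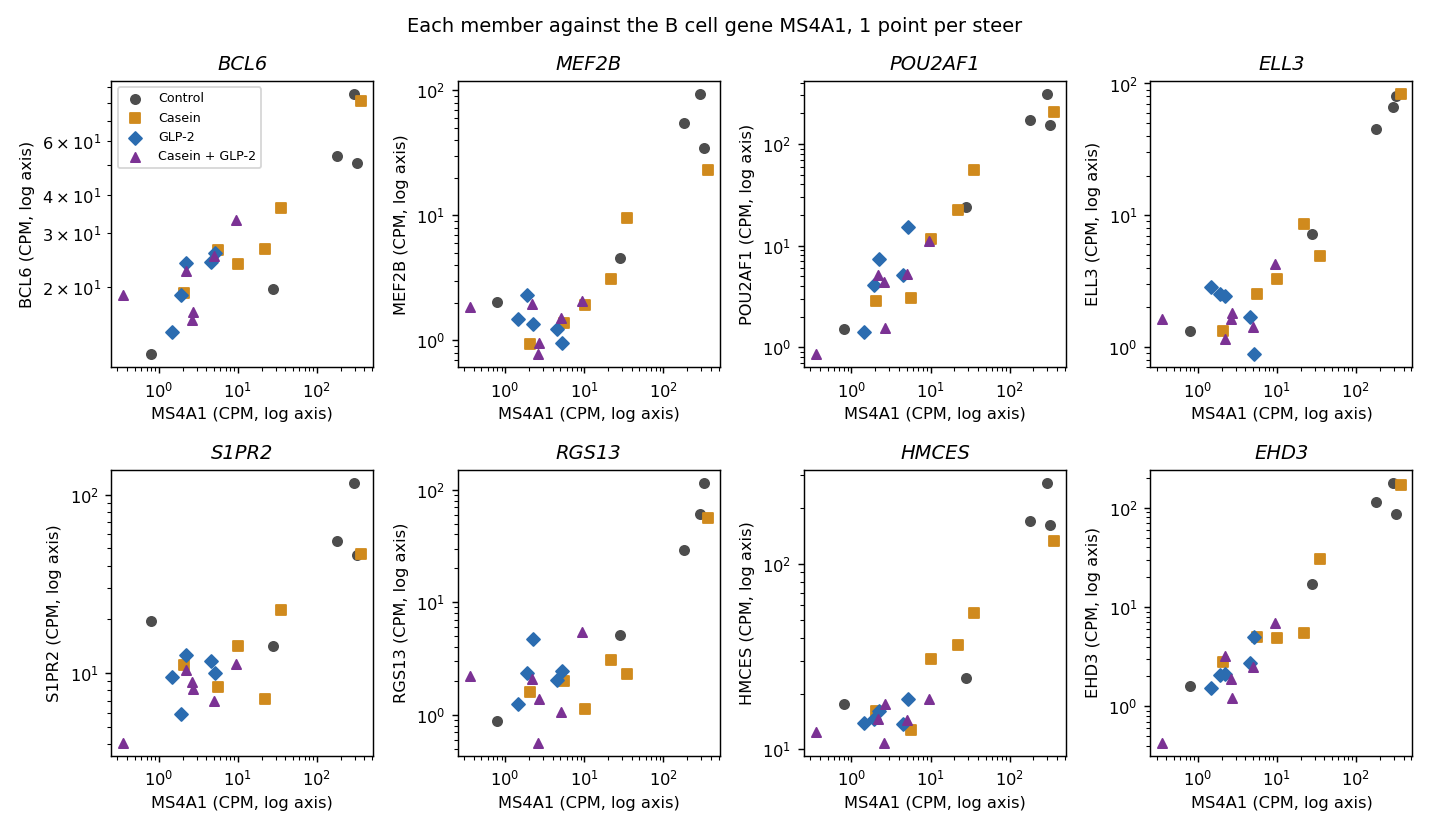
CPM of each member against CPM of MS4A1, both on log axes, with 1 point per steer and a color and shape per treatment. POU2AF1 and EHD3 rise with MS4A1 over the whole range, whereas MEF2B, ELL3 and RGS13 show no such rise among the GLP-2 and casein + GLP-2 steers and are high in the 4 steers at 182 to 366 CPM of MS4A1.

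Over all 22 steers, each member ran less closely with MKI67 than with MS4A1. Within the 11 BSA steers, which hold the 4 high ones, r was 0.71 to 0.90 with MKI67 and 0.75 to 0.98 with MS4A1. There only S1PR2 had a higher r with MKI67 (0.83) than with MS4A1 (0.75). MKI67 itself was at 66.6 to 309 CPM with BSA and 48.2 to 208 CPM with GLP-2 (log2 fold change -0.66 ± 0.29, adjusted p = 0.109, edgeR). Over 22 steers r was 0.60 (RGS13) to 0.77 (HMCES), and without the 4 high steers -0.07 (ELL3 and RGS13) to 0.48 (HMCES). Among GLP-2-injected steers it was -0.65 for ELL3 (rho -0.66) and at most 0.36, for BCL6 (rho 0.48). GLP-2 replicate 1 had 208 CPM of MKI67, a level above that of control replicate 1 (164 CPM). The members differed in that steer. MEF2B was at 0.958 CPM (12 counts) and ELL3 at 0.878 CPM (11 counts). POU2AF1 (15.1 CPM) and HMCES (18.8 CPM) were at their highest among the 11 GLP-2-injected steers. BCL6 was at 25.7, S1PR2 at 9.98, EHD3 at 5.03 and RGS13 at 2.47 CPM. Without the 2 steers farthest from the median of MKI67, r was 0.42 to 0.65.

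Relative to MS4A1, the members did not keep 1 proportion among the 4 high steers. ELL3 was at 0.225 to 0.248 of the CPM of MS4A1 in the 4 steers, a spread of 1.10 times. MEF2B was at 0.107 in control replicate 1, 0.319 in control replicate 3, 0.3003 in control replicate 5 and 0.0633 in casein replicate 3, a spread of 5.04 times. S1PR2 spread by 3.12 times in the same order of steers as MEF2B, and RGS13 by 2.31 times in another order. RGS13 was 3.32 times as high as MEF2B in control replicate 1 and 2.42 times in casein replicate 3, and only 0.648 and 0.535 times as high in control replicates 3 and 5.

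**Figure D4:**
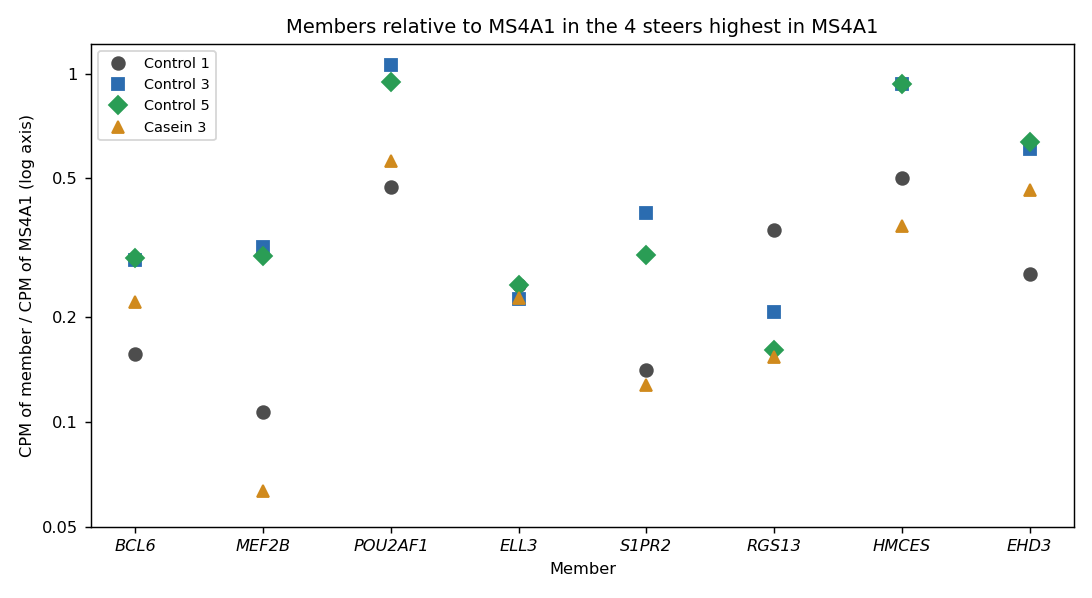
CPM of each member divided by CPM of MS4A1 (log axis) in control replicates 1, 3 and 5 and casein replicate 3. The 4 points of ELL3 lie between 0.225 and 0.248, while those of MEF2B run from 0.0633 to 0.319.

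Casein replicate 1 was the highest of the remaining steers for MS4A1, at 35.2 CPM. POU2AF1 (55.3 CPM), EHD3 (30.5 CPM), HMCES (54.3 CPM), BCL6 (36.3 CPM), S1PR2 (22.4 CPM) and MEF2B (9.56 CPM) were higher there than in the other 17 steers. ELL3 was at 4.90 CPM there, below 8.61 CPM in casein replicate 2. RGS13 was at 2.33 CPM in the same steer, within the range of GLP-2-injected steers.

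The genes most like each member were sought among 13238 genes with a symbol, by Pearson's r of deviations from the 4 treatment means over 22 steers. Such deviations keep the distance of the 4 high steers from the others of their treatment. The search was not repeated without these steers. CD79A and CD79B, the signaling chains of the B cell receptor, led for MEF2B (CD79A, 0.95), HMCES (CD79A, 0.96) and EHD3 (CD79B, 0.97). TCTN1 followed for EHD3 (0.96) and was first for BCL6 (0.94), ahead of SWAP70 (0.94) and CD79A (0.93). ELL3 was most like CR2 (0.94), the complement receptor of B cells and follicular dendritic cells, then LRMP (0.92) and TCEA1 (0.91), and LRMP (0.93) was also first for RGS13, before TCTN1 (0.92) and LYZ1 (0.90). POU2AF1 was most like PAICS (0.97), RASGRP3 (0.96) and VPREB3 (0.96). S1PR2 had the lowest leading value, with GRAP at 0.92, RFTN1 at 0.90 and LTBP2 at 0.89. CLCN4 (0.93) and RSPO1 (0.92) followed for MEF2B, UBR7 (0.94) and CLCN4 (0.93) for HMCES, and VPREB3 (0.96) ranked 3 for EHD3. MS4A1 itself ranked 4 for POU2AF1 and EHD3 and 372 for S1PR2, and MKI67 ranked no higher than 438, for MEF2B.

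Partners and relatives of the members were counted for GLP-2 against BSA by edgeR, beside the 8.37% of all genes called lower and 5.13% called higher. These calls are over all 22 steers, and without the 4 high steers edgeR called 0 of 14285 genes, with 1927 past 0.05 without adjustment. Of the BCL6 corepressors, 0 of 7 were called and the median log2 fold change was 0.09. Of genes that BCL6 is known to repress, 2 of 10 were called lower, CD44 (-0.97) and CD69 (-0.62), and 6 lay below 0 (median -0.28). POU2F2, the octamer factor of B cells that POU2AF1 binds, was lower at -1.87 ± 0.46 (adjusted p = 0.0222, edgeR), and was 1 of 2 tested octamer factors (median -1.09), while POU2F1 was at -0.31 (adjusted p = 0.487). MEF2C was lower at -1.35 (adjusted p = 0.0336), and 0 of the other 2 MEF2 factors were called, with MEF2A at -0.06, also the median of the 3, and MEF2D at 0.17. In the 4 high steers POU2F2 was at 23.8 to 64.3 CPM and MEF2C at 23.9 to 64.6 CPM, against at most 10.6 and 11.9 CPM in the others.

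Of 6 factors related to ELL3 (median 0.25), 2 lay below 0 and 1 was called lower, EAF2 at -3.40 ± 0.71 (adjusted p = 0.0189, edgeR). It went from 27.7 ± 28.5 CPM (SD, n = 11) with BSA to 2.69 ± 2.33 CPM (n = 11) with GLP-2. EAF2 was at 46.7 to 69.5 CPM in the 4 high steers and at most 35.8 CPM in the others. None of the 3 other EHD proteins (median -0.43) was called, with EHD1 at 367 CPM with BSA and 463 CPM with GLP-2. In the pathway of S1PR2, 7 of 9 tested genes lay below 0 (median -0.38). Of the 9, 1 was called lower, the receptor S1PR3 (-1.47), and 1 was called higher, the lyase SGPL1 (0.96). GNA13, the G protein that S1PR2 uses, was at 0.40 (adjusted p = 0.246). Of 7 other small RGS proteins (median -0.20), 5 lay below 0 and 1 was called lower, RGS18 (-1.44). Of 6 abasic site and uracil repair enzymes (median -0.26), 5 lay below 0 and 1 was called lower, APEX1 (-0.97). Of the germinal center genes other than the members, 3 of 14 were called lower, LMO2 (-1.49), MYBL1 (-1.61) and SPIB (-1.25), and 12 lay below 0 (median -0.42). MYBL1 was at 11.4 to 35.1 CPM in the 4 high steers and at most 10.1 CPM in the others.

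Cell type markers were counted in the same way by edgeR calls for GLP-2 against BSA. Of all genes tested, 49.3% had a log2 fold change below 0. Of the follicular B cell genes, 13 of 15, including CR2, CD79A and CD79B, were called lower, and all 15 lay below 0 (median -2.79). Their summed level was 1368 to 2151 CPM in the 4 high steers, at most 333 CPM in the other BSA steers and 97.4 to 194 CPM in GLP-2-injected steers. Of the follicular dendritic cell and lymphoid stroma genes, 5 of 7 lay below 0 (median -1.83). These 5 were all called, including CXCL13, CCL21, MFGE8 and TNFSF13B. Of the follicle-associated epithelium genes, 4 of 6, including GP2, CCL20 and MARCKSL1, were called lower, and all 6 lay below 0 (median -1.48). Follicular T helper and T cell genes were called lower in 2 of 11 (CCR7 and ICOS), and 9 lay below 0 (list median -0.25). Plasma cell genes were called lower in 2 of 10 (DERL3 and TNFRSF17), and 7 lay below 0 (list median -0.70). Mitotic genes were called lower in 5 of 12 (AURKB, CCNB2, CCNA2, CCNB1 and AURKA), and all 12 lay below 0 (list median -0.66). Villus enterocyte and epithelial genes were called higher in 3 of 12 (CDH1, SLC5A1 and EPCAM), and 11 lay above 0 (list median 0.76). Their summed level was 3241 CPM in control replicate 5, 6835 CPM in control replicate 3, 5983 CPM in casein replicate 3 and 18501 CPM in control replicate 1. It was 6638 to 38677 CPM (median 24953 CPM) in the other 7 BSA steers and 16594 to 55128 CPM in GLP-2-injected steers, so these ranges overlapped. None of the 8 smooth muscle genes was called (median -1.21). Their summed level was 122 to 1457 CPM in the 4 high steers, 31.8 to 784 CPM in the other BSA steers and 37.0 to 809 CPM with GLP-2. Of the ileal genes 1 of 4 was lower (median 0.30), FABP6, at 109.7, 220.6, 13.3 and 53.5 CPM in control replicates 1, 3 and 5 and casein replicate 3, at most 18.4 CPM in the other BSA steers, of which 3 lay above control replicate 5, and at most 8.82 CPM with GLP-2. No gene of these lists that was in the table was at 0 counts in all steers. The part of these markers in the members' values was not tested.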

How the data were processed

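Whole-number gene counts of 22 steers were used as deposited by the authors. Per the labels, strand-specific libraries were made from polyadenylated RNA, and the submitters' processing notes name HISAT2 2.0.5, StringTie 1.3.3b, featureCounts 1.5.0-p3, DESeq2 1.20 and build ARS-UCD1.2; the strand setting of the counting is not given in the sources used here. The authors also deposited FPKM values, which differed from count-based FPKM by 1 constant factor per library (0.798 to 1.37) and served for levels per length and as an alternative. No pair of libraries of a treatment was identical. Library totals were 8809666 to 28447810 and p-values measure the spread between steers.

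Genes were kept by filterByExpr (minimum count 10), normalized by TMM and tested with edgeR 4.0.16 (R 4.3.3) by the quasi-likelihood test with Benjamini-Hochberg adjustment over all genes tested and a threshold of 0.05. The injection (GLP-2 or BSA) and the infusion (casein or water) were each compared over pooled treatments; the other contrasts came from a model of the 4 treatments with 15086 genes. The SE of an edgeR log2 fold change was derived as its size divided by the square root of the F statistic of the test. Log2 CPM used a prior count of 2. Alternatives used limma 3.58.1 on log2(FPKM + 1), DESeq2 1.42.0, the block, and steers left out. The edgeR step was tested on simulated counts. The 8 members and the 19 gene lists (8 genes are in more than 1) were chosen with earlier results of these data known; genes named are the members, MS4A1, MKI67, the 3 genes most like each member, and up to 4 genes of a list with the smallest p for the injection, with FABP6 and a few relatives added after their values were seen. A few genes of the lists are not reported here and were left out of their counts. No sequence is shown because no genome of the build was used here.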

Additional observations from a re-analysis of the deposited data

Results flagged for a closer look

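In Dixon's test on log2 CPM within each treatment, 2 values stood apart from the other steers of their treatment. RGS13 in casein replicate 3 was at 5.82, with the next casein steer at 1.69 (gap of 0.753 of the range, n = 6). ELL3 in casein + GLP-2 replicate 5 was at 2.14, with the next steer at 0.97 (gap of 0.657 of the range, n = 6). Of 40 groups of values examined, for the 8 members, MS4A1 and MKI67 in 4 treatments, chance would flag about 1 in 20.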

How the results depend on the processing

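Counts were low in GLP-2-injected steers for MEF2B, ELL3 and RGS13 (8 to 69 counts) and for EHD3 (6 to 88 counts). The part of depth in their correlations was not tested. The mean correlation between steers was 0.0331 in 30 pairs of a block and -0.00641 in 151 other pairs, with 13 of the 30 and 55 of the 151 over 0.1. Whether steers of a block resembled each other more was not tested. The count of genes called between GLP-2 and BSA was 1881, and the cause of each move below was not tested. It was 689 with the replicate block (351 higher and 338 lower, 6 of 8 members called), 2999 in the DESeq2 Wald test, 0 without the 4 steers highest in MS4A1 (an alternative chosen after the data were seen) and 2092 by limma on log2(FPKM + 1), where 1210 were higher and 882 lower. Leaving out 1 steer gave 634 (without casein + GLP-2 replicate 3) to 3516 (without control replicate 2), with 7 or 8 members called. The members were chosen on this comparison, so their calls in it are a description. The DESeq2 Wald test called 5 genes between casein and water, 10 between casein and control, 5 between casein + GLP-2 and GLP-2 and 2 for the interaction, 0 of them members, where edgeR called 0. Over the alternatives run, no member was called in a casein comparison. The smallest adjusted p there was 0.0641, for RGS13 between casein and control without casein replicate 3 (edgeR).

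All 8 members stayed lower with GLP-2 under the alternatives run, which their choice favors, so this is a description. Limma on log2(FPKM + 1) called 6 of 8, without RGS13 and BCL6, beside 2092 of 13928 genes tested. Its median over the members was -1.75, with EHD3 at -2.16, ELL3 at -1.85, MEF2B at -1.83 and RGS13 at -1.45, on a scale whose pseudocount understates the change of low genes. For EHD3, casein + GLP-2 against GLP-2 was at 0.011 with DESeq2's size factors, 0.025 without a filter, 0.0075 in the DESeq2 Wald test and 0.33 with the replicate block, under which HMCES was at 0.063, against -0.0013 and -0.061. Without the 4 steers, casein against water was at 0.29 for BCL6, 0.26 for MEF2B, 0.46 for POU2AF1, 0.13 for ELL3, 0.37 for HMCES and 0.38 for EHD3. Casein against control was then at 0.72 for BCL6, 0.018 for MEF2B, 0.58 for POU2AF1, 0.51 for HMCES and 0.055 for EHD3, and casein + GLP-2 against GLP-2 at 0.024 for EHD3. The interaction was then at -0.66 for BCL6, -1.01 for POU2AF1, -0.55 for HMCES and -0.032 for EHD3.

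Without the 4 steers, r with MS4A1 was 0.68 for BCL6, 0.60 for MEF2B, 0.91 for POU2AF1, 0.71 for ELL3, 0.42 for S1PR2, 0.40 for RGS13, 0.76 for HMCES and 0.92 for EHD3. With MKI67 it was 0.45 for BCL6, 0.40 for MEF2B, 0.45 for POU2AF1, -0.066 for ELL3, 0.16 for S1PR2, -0.068 for RGS13, 0.48 for HMCES and 0.41 for EHD3. The other 64 correlations under alternatives, and all 352 without 1 steer, lay within the 95% interval of the value over 22 steers. Each of these settings keeps some of the 4 high steers, so they do not show how r depends on that cluster. The GLP-2-injected steers alone, described above, were not part of this tally.

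Without 1 steer at a time, casein + GLP-2 against GLP-2 ran from -0.090 to 0.13 for BCL6, -0.075 to 0.26 for MEF2B, -0.88 to 0.11 for POU2AF1, -0.42 to 0.11 for ELL3, -0.79 to 0.077 for RGS13, -0.12 to 0.022 for HMCES and -0.53 to 0.34 for EHD3, and the count called was 0 to 1. For BCL6, casein against water ran from -0.48 to 0.090, casein against control from -0.76 to 0.058 and the interaction from -0.018 to 0.82, and each changed its sign without control replicate 3.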
